A study of Mus musculus with 71 samples.

Results

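The 8 genes described here encode receptors for the Fc part of antibodies, and a signalling chain of such receptors. Fcgr1, Fcgr3 and Fcgr4 are activating receptors with the common signalling chain Fcer1g, and Fcgr2b is the inhibitory receptor. The others are the recycling receptor Fcgrt, the cytosolic receptor Trim21 and Fcer2a, which binds IgE and not IgG. The 8 genes were picked by gene symbol under a rule with no expression threshold. All 8 were among the 10508 genes of the deposited expression table and the 55416 genes of the count table. Whole blood RNA of 71 mice in a model of systemic sclerosis was sequenced, in which hypochlorous acid (HOCl) is injected into the skin and galectin-3, a sugar-binding protein, is the target of the antibodies tested. All mice were female Balb/c AnNRj animals, 6 weeks of age at the start. The 11 control mice received PBS and the 12 HOCl mice received intradermal HOCl on 5 days a week for 6 weeks. The other groups received the same HOCl course together with D11, E07, D06 or BPR21 (12 mice each). D11 and E07 are antibodies against galectin-3 in human IgG1 format, injected under the skin at 20 mg/kg every 5 days. Their Fc part carries a double mutation that strongly reduces effector functions. The names D06 and BPR21 stand in the sample labels only, and what was given under them is not described in the sources used here. The groups were housed in separate cages, so that cage and treatment cannot be told apart, and sample titles number each mouse as a separate animal. The characteristics of the control samples also read HOCl, and the group was therefore taken from their titles.

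Fc gamma receptors bind the constant part of IgG on myeloid cells and lymphocytes. Fcgr1 (CD64) has high affinity, Fcgr3 (CD16) and Fcgr4 bind immune complexes, and all 3 signal through the ITAM motif of the Fc receptor gamma chain encoded by Fcer1g. Fcgr2b (CD32b) is the inhibitory receptor of the family and signals through an ITIM motif, on B cells as well as on myeloid cells. The neonatal Fc receptor FcRn, whose heavy chain is encoded by Fcgrt, protects IgG from degradation and thereby prolongs the half-life of antibodies, Trim21 is a ubiquitin ligase that binds antibodies which have entered the cytosol, and Fcer2a (CD23) is the low-affinity IgE receptor of B cells.

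The total of the gene counts ran from 11932855 to 15948972 per mouse. On GRCm39, 4 of the 8 genes lie together on chromosome 1, Fcgr2b at chr1:170786186-170804177 (minus strand), Fcgr4 at chr1:170846466-170857330 (plus strand), Fcgr3 at chr1:170878738-170893549 (minus strand) and Fcer1g at chr1:171057141-171062219 (minus strand). Fcer2a lies at chr8:3731737-3744183 and Trim21 at chr7:102207128-102214704, both on the minus strand. The lowest counts among the 8 genes were those of Fcgr1, with 16 to 414 reads per mouse (median 156), and the highest median count was that of Fcer1g, at 2366 (992 to 4951). HOCl mouse 8 was present in the counts only, so that the HOCl group comprised 11 mice in the tests on expression values. It comprised 12 in the tests on counts and with total-count scaling. In this mouse, Fcgr1 (19.4 CPM, the count scaled to the library total) and Fcer1g (293 CPM) were above each of the other 11 HOCl mice, whereas the other 6 genes lay within their range. BPR21 mice 7 and 11 stood apart from the other mice of their group, with the highest levels of Fcgr3, Fcgr4 and Fcer1g, and results for BPR21 are therefore also given without them. Control mouse 6 had the highest Fcgr3, Fcgr4 and Fcer1g levels of the control group. Size factors estimated from the counts averaged 1.29 in control, 0.938 in HOCl, 0.969 in D11, 1.28 in E07, 0.868 in D06 and 0.980 in BPR21 mice. When libraries were scaled by total count instead, the median log2 change of all genes moved from -0.02 to -0.46 between HOCl and control mice and from 0.02 to 0.49 between E07 and HOCl mice, so that changes below are relative to the median gene.

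Per length, as RPKM with the exon lengths of GENCODE vM39, the signalling chain was the most abundant of the 8 transcripts over all 71 mice. The median RPKM was 143 for Fcer1g, 43.3 for Fcer2a, 40.8 for Fcgr3, 18.6 for Fcgr4, 6.42 for Fcgr2b, 6.26 for Trim21, 3.37 for Fcgrt and 3.27 for Fcgr1. Differences between groups are given on the variance-stabilized (vst) scale, a log2-like scale on which only values of the same gene are compared.

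A gene was called when it passed 2 thresholds, an adjusted p no higher than 0.05 (limma, Benjamini-Hochberg over all 10508 genes) and a difference of 1.3-fold or more. With the same thresholds, 4.96% of all genes passed between HOCl and control mice, and 0 of the 8 Fc receptor genes did. The lowest adjusted p was 0.317, for Trim21, 0 of the 8 genes had an unadjusted p below 0.05 (17.9% of all genes), and 0 passed with edgeR or DESeq2 on the counts. Each of the 8 confidence intervals included 0, and they reached from -0.53 for Fcer2a to 0.43 for Fcgr4 on the log2 scale. For 8 genes, a count of 0 lies near the 4.96% of all genes. In the same comparison, 11 of 13 red cell precursor markers, 5 of 6 platelet markers, 3 of 11 neutrophil markers and 4 of 19 interferon-stimulated genes were higher. Of 14 monocyte, 10 B cell, 9 T cell and 8 NK cell markers, 0 were called. All 11 neutrophil markers had a positive difference (median 0.47), and their part in the Fc receptor values was not tested.

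**Figure D1:**
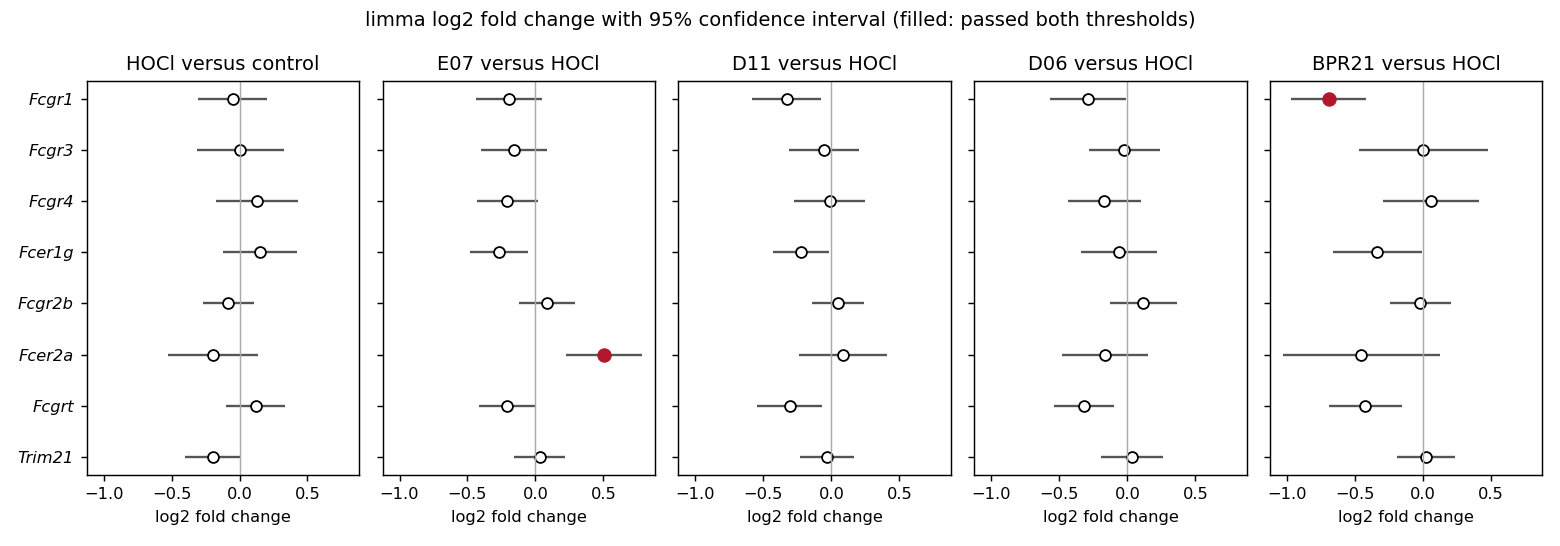
Log2 fold change of each Fc receptor gene on the vst scale (horizontal axis) in the 5 comparisons with or of HOCl mice, from limma, with the 95% confidence interval as a line. Filled points passed both thresholds: Fcer2a in E07 mice (0.50) and Fcgr1 in BPR21 mice (-0.70).

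Compared with HOCl mice, 1 of the 8 genes was called in E07 mice (background 7.89% of all genes in either direction and 0.876% higher) and 1 in BPR21 mice (background 0.638% in either direction and 0.4% lower). None was called in D11 mice (background 0.0571%) or in D06 mice (background 0.133%), where edgeR and DESeq2 also called 0. An unadjusted p below 0.05 (limma) was found for 3 of the 8 genes in D11 mice (14.1% of all genes) and for 2 in D06 mice (12.7% of all genes). The gene called in E07 mice was Fcer2a, which was higher, and the gene called in BPR21 mice was Fcgr1, which was lower. For 8 genes, a count of 1 in E07 mice lies near the 7.89% of all genes in either direction. The comparisons share the same HOCl mice.

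Among the activating receptors Fcgr1, Fcgr3 and Fcgr4, Fcgr1 was called in BPR21 mice, and the others were called in no comparison. The gene lies at chr3:96190225-96201338 on the minus strand of GRCm39, and the 250 bases before its transcription start are shown because Fcgr1 was the receptor called in BPR21 mice, with capitals marking a match to the STAT-binding GAS motif TTCNNNGAA. This window lies at chr3:96201339-96201588.
Fcgr1: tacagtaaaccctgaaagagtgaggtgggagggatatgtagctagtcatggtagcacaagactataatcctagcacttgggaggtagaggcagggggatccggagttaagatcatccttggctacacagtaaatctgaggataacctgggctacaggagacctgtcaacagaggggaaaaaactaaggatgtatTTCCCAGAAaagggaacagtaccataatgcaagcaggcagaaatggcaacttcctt
The match lay 56 to 48 bases before the start, and 7.7% of 21757 such windows of protein-coding genes held one.

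In control mice, Fcgr1 vst values ranged from 7.93 to 8.74 (median 8.25), and in HOCl mice from 7.73 to 8.87 (median 8.34). In the mice given antibodies of known identity, they ranged from 7.41 to 8.56 (median 7.98) with D11 and from 7.63 to 8.57 (median 8.07) with E07. They ranged from 7.45 to 8.67 (median 8.02) in D06 mice and from 6.97 to 8.12 (median 7.55) in BPR21 mice. Control and HOCl mice overlapped almost completely, while the BPR21 values sat at the low end, with all 12 mice below the median of the HOCl group and 7 below every HOCl mouse.

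In BPR21 compared with HOCl mice, Fcgr1 was lower by a log2 difference of -0.70 (SE 0.14, 95% confidence interval -0.98 to -0.42, 1.62-fold, adjusted p = 0.0113, limma). Compared with control mice the difference was -0.75 (SE 0.13, adjusted p = 0.0106), with 12 of 12 BPR21 mice below the control median and 10 below every control mouse. In this comparison Fcgr1 was again the 1 gene of the 8 to pass (background 0.504% in either direction and 0.352% lower). The vst scale compresses differences of genes with few reads, and edgeR on the counts gave -1.22 (adjusted p = 0.0128) against HOCl and -1.27 (adjusted p = 0.00805) against control mice. The tests on counts and with total-count scaling include HOCl mouse 8, which had the highest Fcgr1 of the HOCl mice (19.4 CPM). The part of this mouse in the larger difference from HOCl mice was not tested. Without BPR21 mice 7 and 11, the difference from HOCl mice was -0.73 (adjusted p = 0.0109). The call against HOCl mice was lost with total-count scaling (-1.07, adjusted p = 0.0689), with the mouse number as a block (-0.67, adjusted p = 0.0560) and when mice were centred on their B cell markers (-0.50, adjusted p = 0.860).

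The other treated groups also had lower mean Fcgr1 values than HOCl mice, but no such difference passed. The log2 difference was -0.33 (adjusted p = 0.243) in D11, -0.29 (adjusted p = 0.377) in D06 and -0.19 (adjusted p = 0.297) in E07 mice, and the E07 value became 0.14 with total-count scaling and 0.10 when each mouse was centred on its monocyte markers. In the order of group means, from control through HOCl, E07, D06 and D11 to BPR21, no pair of neighbours passed the thresholds (lowest adjusted p = 0.297, limma). The lowest unadjusted p of these pairs was 0.00794, for BPR21 against D11 mice (log2 difference -0.37, adjusted p = 0.676).

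Markers of monocytes, the main Fcgr1-expressing cells of blood, moved with Fcgr1. Of 14 monocyte markers, 5 were lower in BPR21 than in HOCl mice, the list's median log2 difference was -0.48 against -0.00 for all genes, and none of the 14 was at 0 in either group. Cx3cr1, the fractalkine receptor, fell by 0.87 (adjusted p = 0.00808), Ly6c2, which marks classical monocytes, by 0.68 (adjusted p = 0.0145), and Csf1r, the receptor for the monocyte growth factor M-CSF, by 0.67 (adjusted p = 0.0434). The summed level of the list ranged from 352 to 983 CPM (median 660) in BPR21 and from 512 to 1246 CPM (median 902) in HOCl mice. These sums of the markers include HOCl mouse 8 and are scaled by total count, where the median gene was higher by 0.07 on the log2 scale. When each mouse was centred on these markers, Fcgr1 differed by -0.26 (adjusted p = 0.0810) and was no longer called. The monocyte list's median difference from HOCl mice was also below 0 in the other treated groups. It was -0.26 in E07 (3 markers called lower), -0.26 in D11 (0 called) and -0.22 in D06 mice (1 called lower). In bulk blood, fewer cells of a type and less RNA per cell cannot be told apart.

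Fcgr4, next to Fcgr3 on chromosome 1 and a receptor for complexes of IgG2a and IgG2b on monocytes and neutrophils, was not called in any of the 5 comparisons with HOCl mice or of HOCl with control mice. Its vst values ranged from 8.29 to 9.92 (median 8.64) in control, from 8.32 to 9.21 (median 9.03) in HOCl and from 8.31 to 9.19 (median 8.65) in E07 mice. The BPR21 group spanned the widest range, from 7.98 to 9.88 (median 8.92). The log2 difference from HOCl mice lay between -0.21 (E07, 95% confidence interval -0.43 to 0.02) and 0.06 (BPR21, 95% confidence interval -0.30 to 0.41), and the groups overlapped throughout. Its promoter window, at chr1:170846216-170846465 on the plus strand, is shown because it holds a GAS match, like that of Fcgr1, and a match to the interferon-response core GAAANNGAA, both in capitals.
Fcgr4: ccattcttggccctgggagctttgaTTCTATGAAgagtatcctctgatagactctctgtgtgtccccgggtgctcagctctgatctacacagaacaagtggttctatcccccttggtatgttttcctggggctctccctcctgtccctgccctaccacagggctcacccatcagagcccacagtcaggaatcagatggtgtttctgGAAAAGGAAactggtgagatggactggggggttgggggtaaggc
Of all windows, 7.56% held the second motif.

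Fcgr3, the low-affinity activating receptor of neutrophils, monocytes and NK cells, varied more between mice than between groups. Its vst values ranged from 10.16 to 11.36 (median 10.84) in HOCl, from 10.19 to 11.78 (median 10.89) in control and from 10.41 to 11.02 (median 10.75) in E07 mice. In BPR21 mice, 10 of 12 lay between 10.28 and 10.85, while mice 7 (12.31) and 11 (12.60) were above every other mouse of the study. The difference between BPR21 and HOCl mice was 0.00 (SE 0.23, adjusted p = 1.00), and -0.31 (adjusted p = 0.227) without these mice.

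Fcer1g, the gamma chain needed for surface expression of the activating receptors, had mean values of 11.37 ± 0.28 (SD, n = 11) in HOCl, 11.22 ± 0.38 (n = 11) in control, 11.10 ± 0.24 (n = 12) in E07 and 11.03 ± 0.50 (n = 12) in BPR21 mice. In E07 mice it differed from HOCl mice by -0.27 (SE 0.10, adjusted p = 0.0842), with 11 of 12 mice below the HOCl median, and with total-count scaling by 0.15. In BPR21 mice the difference was -0.34 (adjusted p = 0.344), and 0.10 when centred on the monocyte markers. Without BPR21 mice 7 and 11 it became -0.53 (adjusted p = 0.0116, limma). Fcer1g then passed both thresholds beside Fcgr1, among 116 called genes of 10508. These mice were set apart by high levels that include Fcer1g itself, so this fit cannot show whether Fcer1g was lower. The window before its start, at chr1:171062220-171062469 on the minus strand, is printed as that of the most abundant transcript, with 2 matches to the myeloid PU.1 motif GAGGAA on the other strand in capitals.
Fcer1g: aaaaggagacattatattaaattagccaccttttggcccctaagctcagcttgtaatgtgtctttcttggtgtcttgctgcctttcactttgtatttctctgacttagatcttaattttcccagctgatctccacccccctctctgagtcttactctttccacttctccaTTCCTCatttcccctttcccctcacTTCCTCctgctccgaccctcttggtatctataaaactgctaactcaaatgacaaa
A PU.1 match was found in 22.9% of the windows, and the windows of Fcgr2b, Fcgr3, Fcgrt, Fcer2a and Trim21 held no match to any of the 3 motifs.

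Fcgr2b, the inhibitory receptor, was not called in any comparison by limma. Its mean vst values lay between 9.25 ± 0.29 (SD, n = 12) in BPR21 and 9.39 ± 0.35 (n = 12) in D06 mice, with 9.35 ± 0.21 (n = 11) in control and 9.27 ± 0.21 (n = 11) in HOCl mice. The 95% confidence intervals of its differences from HOCl mice reached from -0.24 (BPR21) to 0.36 (D06), and no adjusted p was below 0.621.

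Fcgr2b and Fcgr3 are related genes with a shared stretch of coding sequence. The coding sequences, of 879 and 801 bases, share an unbroken run of 129 bases, printed here because reads within it could stem from either gene.
Fcgr2b and Fcgr3: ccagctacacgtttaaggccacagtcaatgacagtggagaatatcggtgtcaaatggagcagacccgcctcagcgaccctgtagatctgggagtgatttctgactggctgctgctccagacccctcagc
In Fcgr2b the run spans coding exons 3 and 4, at chr1:170795549-170795650 and chr1:170794243-170794269, and in Fcgr3 coding exons 3 and 4, at chr1:170885260-170885361 and chr1:170881736-170881762, all on the minus strand. Of the distinct stretches of 100 bases in annotated Fcgr3 transcripts, 1.14% also occurred in those of Fcgr2b, and of those of 150 bases, the read length, 0% did. The counts of both genes are uncertain to the extent that shorter fragments came from this run. Fcgr1 and Fcgr4 shared 0% of stretches of 50 bases with Fcgr2b or Fcgr3.

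**Figure D2:**
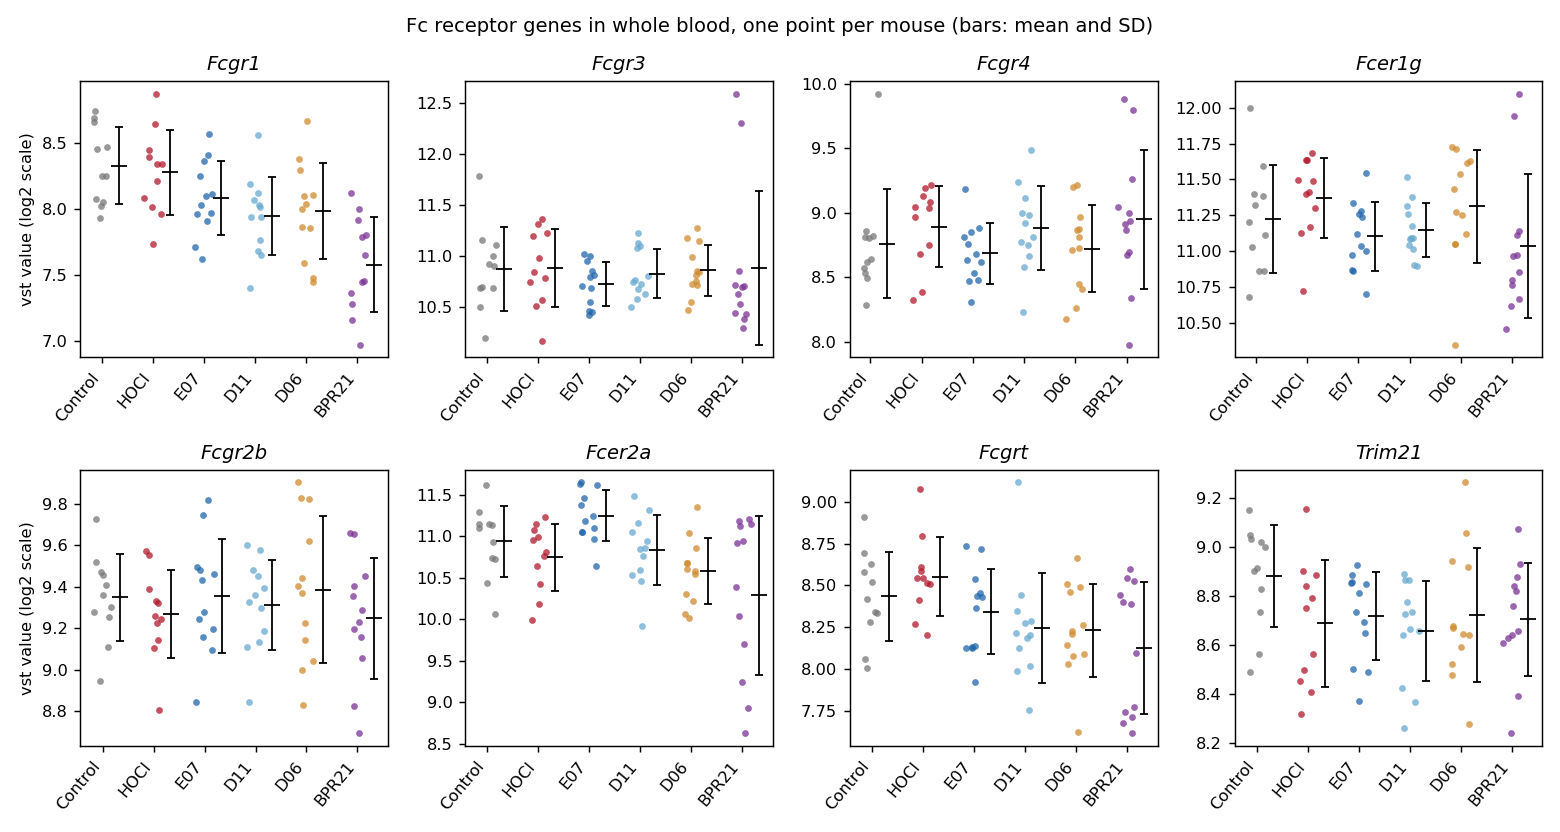
The vst value (vertical axis, log2 scale) of each Fc receptor gene in 70 mice, as one point per mouse by group, with the mean and SD as black bars. The 12 BPR21 mice sit below the HOCl median for Fcgr1, the E07 mice sit high for Fcer2a, and BPR21 mice 7 and 11 stand out for Fcgr3.

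Fcer2a, the CD23 antigen, binds IgE and not IgG, and was called in E07 mice. Its vst values ranged from 9.99 to 11.23 (median 10.81) in HOCl and from 10.65 to 11.65 (median 11.21) in E07 mice. They ranged from 10.07 to 11.62 (median 11.10) in control, from 9.92 to 11.49 (median 10.85) in D11 and from 10.01 to 11.36 (median 10.59) in D06 mice. In BPR21 mice the range was widest, from 8.62 to 11.21 (median 10.66). All groups overlapped, with 6 of 12 E07 mice above every HOCl mouse and 11 above the HOCl median.

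The log2 difference between E07 and HOCl mice was 0.50 (SE 0.14, 95% confidence interval 0.22 to 0.79, 1.42-fold, adjusted p = 0.0133, limma). In 1 fit of all 6 groups the difference was the same, 0.50, but the adjusted p was 0.131 and the call was lost. Against control mice, Fcer2a in E07 mice differed by 0.31 (adjusted p = 0.637), and 0 of the 8 genes passed with limma or edgeR (background 0.00952%), 2 of them having an unadjusted p below 0.05 (7.60% of all genes). The other antibody did not share the difference from HOCl mice (0.08, 95% confidence interval -0.24 to 0.41), but the direct comparison of E07 with D11 mice gave 0.42 (SE 0.14, adjusted p = 0.0666), so that the antibodies were not shown to differ. In this comparison 0 of the 8 genes passed with limma or edgeR, against 4.57% of all genes, and 1 had an unadjusted p below 0.05, against 20.9% of all genes.

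Markers of B cells, the blood cells that carry CD23, moved with Fcer2a. Of 10 B cell markers, 8 were higher in E07 than in HOCl mice, with a median log2 difference of 0.53 against 0.02 for all genes. Tnfrsf13c, the BAFF receptor, was higher by 0.63 (adjusted p = 0.000189) and Ms4a1 (CD20) by 0.59 (adjusted p = 0.00744). The summed level of the list ranged from 1410 to 2982 CPM (median 2340) in E07 and from 375 to 1649 CPM (median 1182) in HOCl mice. These sums include HOCl mouse 8 and are scaled by total count, where the median gene was itself higher by 0.49 on the log2 scale. None of the 10 markers was at 0. When each mouse was centred on these markers, Fcer2a differed by 0.03 (adjusted p = 0.789).

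Fcer2a also differed between E07 mice and those given D06 or BPR21, in comparisons picked out after seeing the data. It was lower in D06 than in E07 mice by a log2 difference of -0.67 (adjusted p = 0.000683) as the 1 gene of the 8 to pass, a count near the 9.76% of all genes. In BPR21 compared with E07 mice, 2 of the 8 genes passed (background 7.26%): Fcer2a at -0.96 (SE 0.26, adjusted p = 0.0238) and Fcgr1 at -0.50 (SE 0.12, adjusted p = 0.0175). The Fcer2a difference was -0.69 (adjusted p = 0.0579) without BPR21 mice 7 and 11, and -0.81 (adjusted p = 0.0560) with edgeR, and was then not called. Fcgr1 was still called without these mice (-0.53, adjusted p = 0.0393).

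The promoter window of Fcer2a, at chr8:3744184-3744433 on the minus strand, is shown as that of the receptor called in E07 mice, and held no match to any of the 3 motifs.
Fcer2a: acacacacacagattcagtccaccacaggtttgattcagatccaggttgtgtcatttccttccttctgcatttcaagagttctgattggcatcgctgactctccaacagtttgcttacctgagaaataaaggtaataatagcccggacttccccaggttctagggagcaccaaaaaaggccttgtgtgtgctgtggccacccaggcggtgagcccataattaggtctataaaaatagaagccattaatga

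Fcgrt had its highest mean vst value in HOCl mice and lower means in all treated groups, although total-count scaling turned the E07 difference. The gene lies at chr7:44742412-44756819 on the minus strand. Its vst values ranged from 8.21 to 9.07 (median 8.54) in HOCl and from 8.01 to 8.91 (median 8.42) in control mice. With D11 they ranged from 7.75 to 9.12 (median 8.21), with E07 from 7.92 to 8.73 (median 8.40), with D06 from 7.62 to 8.66 (median 8.22) and with BPR21 from 7.61 to 8.60 (median 8.24). The treated groups overlapped with the HOCl group, although between 5 and 6 mice of each lay below every HOCl mouse.

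None of these Fcgrt differences passed. The log2 difference from HOCl mice was -0.21 (95% confidence interval -0.41 to -0.00, adjusted p = 0.169) in E07, -0.31 (-0.55 to -0.07, adjusted p = 0.252) in D11, -0.32 (-0.54 to -0.10, adjusted p = 0.199) in D06 and -0.43 (-0.70 to -0.16, adjusted p = 0.120) in BPR21 mice. The 4 comparisons share the HOCl mice. The E07 difference was 0.19 with total-count scaling and 0.08 when centred on the monocyte markers, and the BPR21 difference was 0.02 with the latter. In 1 fit of all 6 groups, the BPR21 difference of -0.43 passed (adjusted p = 0.0466). Of the FcRn and TRIM21 partners, B2m, the light chain of FcRn, was not called in any comparison with HOCl mice. Vcp, the segregase that acts with TRIM21, fell by 0.41 in E07 mice (adjusted p = 0.00559). Its differences from HOCl mice were of similar size but not called in D06 (-0.40), D11 (-0.39) and BPR21 mice (-0.35).

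Trim21 had its highest mean in control mice, with 8.88 ± 0.21 (SD, n = 11), against 8.69 ± 0.26 (n = 11) in HOCl, 8.66 ± 0.21 in D11, 8.72 ± 0.18 in E07, 8.72 ± 0.27 in D06 and 8.71 ± 0.23 in BPR21 mice (n = 12 each). In HOCl mice, 10 of 11 values lay below the control median, and the log2 difference was -0.19 (95% confidence interval -0.40 to 0.01, adjusted p = 0.317). Against HOCl mice, its differences in the treated groups lay between -0.03 and 0.04. Trim21 is an interferon-inducible gene, and of 19 other interferon-stimulated genes 4 were higher and 15 not called between the same mice, with a median log2 difference of 0.07 and 5 of 19 below 0. Among those called, Isg15 was higher by 1.49 (adjusted p = 0.00606) and Irf7 by 1.04 (adjusted p = 0.0196).

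Against control mice, 0 of the 8 genes passed in D11 (background 0.0761%) and in D06 mice (background 7.88%) with limma or edgeR. An unadjusted p below 0.05 (limma) was found for 2 of the 8 in each, near the shares of all genes (16.1% and 23.2%). The 2 in D11 mice were Fcgr1 (-0.38, adjusted p = 0.123) and Trim21 (-0.23, adjusted p = 0.198). The 2 in D06 mice were Fcgr1 (-0.34, adjusted p = 0.103) and Fcer2a (-0.36, adjusted p = 0.158).

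Within groups, Fcer2a followed the B cell markers, while Fcgr1, Fcgr3, Fcgr4 and Fcer1g shared a relation with the monocyte markers. After subtraction of the group means over 70 mice, Fcer2a correlated with the mean of the B cell markers (Pearson's r = 0.90, Spearman's rho = 0.88, permutation p = 1e-05 each, the smallest that 100000 resamples can give, adjusted p = 8e-05 and 8.89e-05 over 80 relations), and r was 0.88 without the 2 mice farthest from the median. Fcgr3 correlated with the neutrophil (r = 0.72, rho = 0.66) and monocyte markers (r = 0.71, rho = 0.68), and Fcgr4 (r = 0.73, rho = 0.68) and Fcer1g (r = 0.72, rho = 0.68) with the monocyte markers, each with permutation p = 1e-05 and the same adjusted values. Without the 2 farthest mice these r were 0.71, 0.69, 0.67 and 0.68. For Fcgr1 and the monocyte markers, r was 0.55 and rho 0.56 (permutation p = 1e-05 each), and r was 0.52 without the 2 farthest mice. Fcer1g (r = 0.59) and Fcgr4 (r = 0.49) also correlated with the neutrophil markers. With the T cell markers, r was negative for Fcgr3 (-0.62), Fcer1g (-0.55) and Fcgr4 (-0.53). Weaker relations with the monocyte markers were found for Fcgr2b (r = 0.35) and Fcgrt (r = 0.34). Library composition is shared by all genes of a mouse, and its part in these correlations was not tested.

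**Figure D3:**
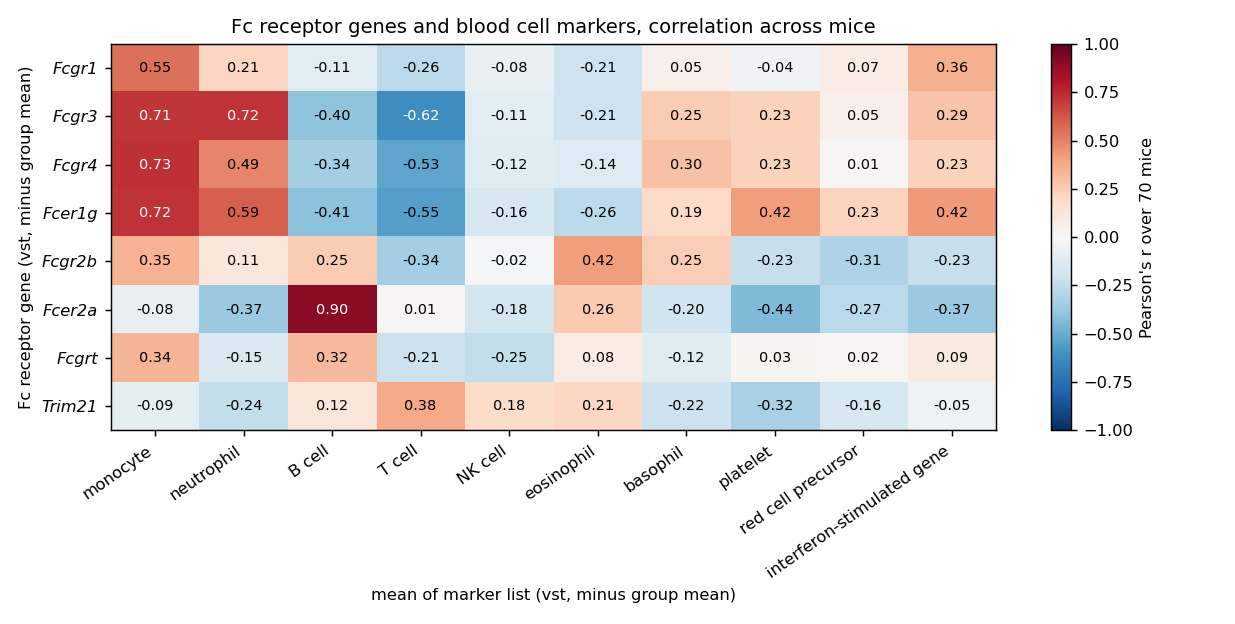
Pearson's r over 70 mice, after subtraction of group means, between each Fc receptor gene (rows) and the mean vst value of each marker list (columns), from blue (-1) to red (1). Fcer2a stands out with B cell markers (0.90), and Fcgr3, Fcgr4 and Fcer1g share the monocyte column (0.71 to 0.73).

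Among the members, Fcer1g and Fcgr3 were the most closely related pair of 28 (r = 0.82, rho = 0.78, permutation p = 1e-05, adjusted p = 9.33e-05 and 0.00014), and Fcgr3 ranked 2 among all 10507 other genes by its likeness to Fcer1g. Fcgr3 and Fcgr4 followed (r = 0.73, rho = 0.62). Fcgrt was related to Fcer2a (r = 0.45, rho = 0.44, adjusted p = 0.00091 and 0.00105). The negative relation of Fcgr3 with Fcer2a (r = -0.37, rho = -0.18) rested on the 2 mice farthest from the median, and r was -0.09 without them.

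The genes most like each member by the same measure are given as a description, without a test. They were Cd22, Cd74 and Ighd for Fcer2a (r = 0.96, 0.95 and 0.95), which encode a B cell lectin, the invariant chain of MHC class II and the IgD heavy chain. For Fcgr3 they were S100a11, Tpd52 and Cxcr2 (r = 0.92, 0.92 and 0.91), the last being a chemokine receptor of neutrophils. For Fcgr4 they were Slc11a1, Tnfaip2 and Tgfbi (r = 0.77, 0.77 and 0.76), and for Fcer1g Ifitm2, Fcgr3 and Gm5150 (r = 0.84, 0.82 and 0.81). Lower values were found for Fcgr1 with Colec12, Sdc3 and Gngt2 (r = 0.60, 0.57 and 0.56), for Fcgrt with Grk3, Plxnb2 and Cd37 (0.59, 0.57 and 0.55), for Fcgr2b with Ccl6, Rab14 and Marchf1 (0.56, 0.56 and 0.54) and for Trim21 with Sting1, Timm50 and Gbp9 (0.56, 0.55 and 0.52).

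**Figure D4:**
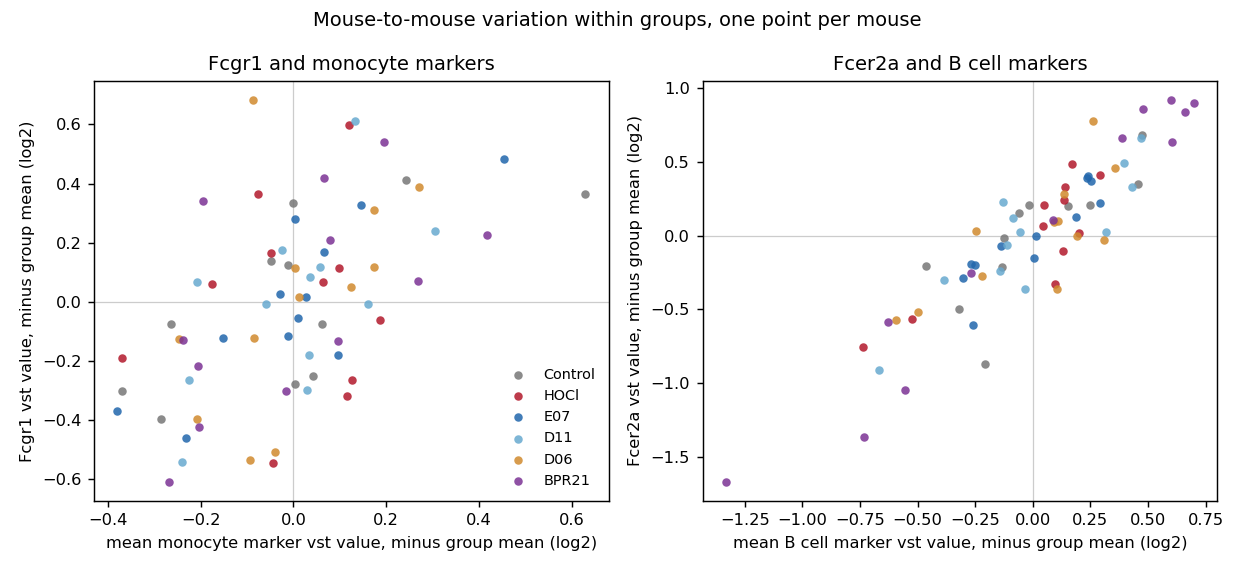
Left, Fcgr1 against the mean of 14 monocyte markers, and right, Fcer2a against the mean of 10 B cell markers, as vst values minus the group mean (log2) with one point per mouse, coloured by group. Points lie closer to a line on the right (r = 0.90) than on the left (r = 0.55).

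Downstream of the receptors, signalling genes were counted against the shares of all genes called, 4.96% between HOCl and control mice and 7.89% between E07 and HOCl mice. Of 17 genes of ITAM signalling, 0 were called with limma in either comparison, and the median differences were 0.07 and -0.06. With lists this short, these counts lie near those shares. In BPR21 mice 1 of 17 was called (0.638% of all genes), Lat, an adaptor of T cells and mast cells, which was higher by 0.39 (adjusted p = 0.0266). Of 6 genes of ITIM signalling, 1 was called in E07 mice, Ptpn11, the phosphatase SHP-2, which fell by 0.42 (adjusted p = 0.00341). No gene of these lists or of the partner list was called in D11 or D06 compared with HOCl mice.

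Of the other Fc receptors, 6 of 11 listed genes were in the expression table. In E07 compared with HOCl mice, the B cell genes Fcrla (0.54, adjusted p = 0.0013) and Fcrl1 (0.45, adjusted p = 0.0121) rose, Fcrla being also on the B cell marker list. Pigr, the transporter of polymeric immunoglobulins, was higher by 0.43 in HOCl than in control mice (adjusted p = 0.0189). Of 7 immunoglobulin heavy chain genes, Ighg1 was higher by 0.76 in HOCl than in control mice (adjusted p = 0.00562), and Ighd was higher by 0.54 in E07 than in HOCl mice (adjusted p = 0.00513). In each of these comparisons, the remaining 6 of the 7 genes were not called. The 3 C1q chains were not in the expression table.

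Markers of further cells moved in the same comparisons, and their part in the Fc receptor values was not tested. In E07 compared with HOCl mice, 12 of 13 red cell precursor markers, 5 of 6 platelet markers, 3 of 14 monocyte markers, 2 of 11 neutrophil markers and 8 of 19 interferon-stimulated genes were lower, and 2 of 4 eosinophil markers were higher. In BPR21 compared with HOCl mice, no list other than the monocyte and ITAM lists had a called gene. In D11 compared with HOCl mice, 1 of 4 eosinophil markers was higher (Ccr3, 0.90, adjusted p = 0.0423), and in D06 mice the same marker was higher (1.17, adjusted p = 0.039) and 1 of 14 monocyte markers lower (Cx3cr1, -0.83, adjusted p = 0.0215). T cell, NK cell and basophil markers had 0 called genes in these 4 comparisons.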

How the data were processed

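Terminal whole blood of 71 mice was sequenced by the authors as strand-specific libraries after poly A selection and globin depletion. Per the study's methods, STAR aligned the reads to mm39, featureCounts counted them per gene, and the authors deposited these raw counts. Per the study's methods, the deposited log2-like values were made with the vst function of DESeq2 for protein-coding genes above a low-expression filter. The annotation release is not given in the sources used here. Genes, exon lengths and windows before transcription starts were taken from GENCODE vM39 on GRCm39, the assembly that mm39 names. Of the genes with vst values, 10501 were paired with counts by symbol and 2 by annotation name, while 5 whose symbol occurs more than once entered no count test. Columns without a sample numbered 0.

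limma 3.58.1 (R 4.3.3) was fitted to the vst values of the 2 groups under comparison, over all 10508 genes. Thresholds were a Benjamini-Hochberg adjusted p of 0.05 and a difference of 1.3-fold. edgeR 4.0.16 and DESeq2 1.42.0 on counts, other scalings, other filters, 1 fit of all groups, a replicate block and leaving out mice were alternatives. The tests were tried on simulated data. RPKM were the counts divided by the total count and the exon length. Total-count scaling took log2 of CPM plus a pseudocount of 1. Correlations used values minus group means and permutations with scipy 1.17.1.

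The members and gene lists were chosen with earlier results of these data known. The genes named were the 8 members, up to 3 called genes of each list with the largest change or, where none was called, up to 2 as values, Csf1r and Irf7 as reference markers, and the 3 genes most correlated with each member. B2m is named outside this rule, after its values were seen. A further reference marker is not reported here. Totals of 11932855 to 15948972 counts limit the precision for Fcgr1 in particular, and the mice are separate animals.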

Additional observations from a re-analysis of the deposited data

Results flagged for a closer look

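Agents given to HOCl mice differed for 2 of the 8 genes when D06 or BPR21 mice were compared directly with E07 mice (limma). The count was 1 of the 8 for D06 mice, against 9.76% of all genes, and 2 for BPR21 mice, against 7.26%. For 8 genes, a count of 1 lies near the 9.76%. These comparisons were picked out after seeing the data, and the values are those given above. The other direct comparisons of agents called none of the 8 genes. For Fcgr1, the adjusted p was 0.676 between BPR21 and D11 mice and 0.392 between BPR21 and D06 mice. For Fcer2a, it was 0.827 between D06 and D11 mice. Fcer2a differed between D06 and E07 mice by -0.67 and between BPR21 and E07 mice by -0.96 on the log2 scale. Fcgr1 differed between BPR21 and E07 mice by -0.50. The alternatives for these pairs were chosen after seeing the data: the first and the last difference passed in all 4 and all 6 of them, and the second failed with edgeR and without BPR21 mice 7 and 11.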

How the results depend on the processing

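Of 488 values of the 8 genes under alternatives in HOCl versus control mice and in each treated group versus HOCl mice, 25 belonged to the called differences, and 6 of these lost the call: Fcer2a in E07 mice with 1 fit of all 6 groups (0.50) and centred on B cell markers (0.03), and Fcgr1 in BPR21 mice with total-count scaling (-1.07), a replicate block (-0.67) and centring on monocyte (-0.26) or B cell markers (-0.50). Among uncalled values, 16 became called in the same direction, 52 changed sign uncalled, and 3 changed sign and were called: Fcgr2b (-0.39) and Trim21 (-0.44) in E07 mice centred on B cell markers, and Fcgr2b (0.42) in BPR21 mice centred on monocyte markers. Centring on a list moves all genes by that list's difference. Total-count scaling moves the median gene as given above; other causes were not tested.

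The number of the 8 genes called against HOCl mice was 0 in E07 mice with 1 fit of all groups, 3 with total-count scaling and 7 centred on B cell markers. In BPR21 mice it was 2 with 1 fit of all groups, 0 with total-count scaling, 4 and 0 centred on monocyte and B cell markers, 0 with a replicate block and 2 without BPR21 mice 7 and 11. This last setting was chosen after seeing the data, by levels that include Fcer1g, 1 of the 2 genes then called. Total-count scaling called 4 between HOCl and control, 5 between E07 and D11, 8 between D06 and control, 2 between BPR21 and control, 7 between D06 and E07 and 5 between BPR21 and E07 mice, while of 10503 genes it called 5460, 4665, 7042, 678, 7792 and 4813 in the same order. BPR21 versus E07 gave 1 with edgeR and 1 without mice 7 and 11. Leaving out 1 mouse at a time, the number stayed at 0 (HOCl versus control, D11, D06) or 1 (E07, BPR21), with Fcer2a from 0.43 to 0.56 and Fcgr1 from -0.75 to -0.64, called in 23 of 23 fits each. Without BPR21 mouse 11 it was 1 against control and 2 against E07 mice.

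Of all genes, 521 were called between HOCl and control mice (503 higher, 18 lower), 5460 with total-count scaling (5.81% higher), 812 with edgeR without a filter and 85 with a replicate block. In E07 versus HOCl mice, 829 were called (92 higher, 737 lower), 1261 with DESeq2, 6784 with total-count scaling (95.4% higher), 3788 (91.0% higher) and 7109 (0% higher) centred on monocyte and B cell markers, 1580 without the fold threshold, and 1173 (28.8% higher), 2388 and 1291 with edgeR on the same genes, without a filter and with its own filter. In the same order of edgeR settings, D11 mice gave 43, 23 and 34 (6 with limma), and D06 mice 56, 37 and 50 (14 with limma). DESeq2 gave 154, 158 and 255 in D11, D06 and BPR21 mice, total-count scaling 0, 3 and 5, monocyte centring 1951, 1526 and 6800, B cell centring 0, 1 and 0, and a replicate block 1, 0 and 21. With 1 fit of all groups, 82 were called in D06 and 148 in BPR21 mice (67 with limma), and 116 in BPR21 mice without mice 7 and 11. Leaving out 1 mouse gave 380 to 676 between HOCl and control, 747 to 917 in E07, 2 (without D11 mouse 1) to 29 (without D11 mouse 10) in D11, 0 (without HOCl mouse 2) to 69 (without D06 mouse 5) in D06 and 36 (without HOCl mouse 6) to 91 in BPR21 mice.

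Mouse numbers did not pair the groups: the mean correlation of deviations between mice with the same number was 0.010 to 0.056, the lowest was below 0 in each of the 5 comparisons, and 1 to 3 of 10 or 11 mice correlated best with their own number. The replicate block kept Fcer2a in E07 mice (0.52, adjusted p = 0.0110, limma) and lost Fcgr1 in BPR21 mice (-0.67, adjusted p = 0.0560). The depth limits Fcgr1 most, at 16 to 414 reads per mouse. All values describe whole blood RNA and not receptor protein.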
